A study of Homo sapiens with 8 samples.

Results

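The histone cluster genes are the genes that encode the replication-dependent histones and lie together in a large cluster on chromosome 6 and smaller clusters on chromosome 1 and elsewhere. They were taken here as all genes whose symbol begins HIST1H, HIST2H, HIST3H or HIST4H and that reached 10 read counts in at least 2 of 8 libraries. Of 23228 genes in the files, 72 carry such a symbol and 47 met the count rule: 4 genes for the linker histone H1, 10 for H2A, 16 for H2B, 9 for H3 and 8 for H4. The read counts themselves chose these 47, so that they reach 10 counts is no finding. The 8 libraries, 2 in each of 4 groups, are single-end reads of 50 bases from RNA of cells labelled U87 MG, an established human glioblastoma line grown in DMEM with FBS. The control libraries are labelled as U87 cells without further change. The ERb_KO libraries carry the label of a CRISPR/Cas9 knockout of estrogen receptor beta (ERβ, gene ESR2), and the ERb1 and ERb5 libraries that of knockout cells given back the ERβ1 or the ERβ5 isoform, so that both also carry the knockout. Whether the knockout line is 1 clone, how the isoforms were expressed and whether the duplicate libraries came from separate cultures is not given in the sources used here. A p-value then reflects only how far these libraries differ, which may be technical.

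Histones package DNA into nucleosomes: H2A, H2B, H3 and H4 form the core and H1 binds the linker DNA between cores. Dividing cells make most of their histones in S phase, when NPAT, a factor at the histone gene clusters, drives transcription and the stem-loop binding protein SLBP guides 3′ processing. The mRNAs of the clustered genes usually lack introns and end in a conserved stem-loop in place of a poly(A) tail. Most replacement histones outside the clusters are made throughout the cell cycle from ordinary polyadenylated mRNAs.

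The stem-loop was searched as GGNNCTTNTNANNGCC on the coding strand within 150 bases after the stop codon of GRCh37, and it was present in 43 of the 45 members with a gene model in GENCODE v44lift37. Of these 43, 24 shared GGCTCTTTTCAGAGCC, and the H4 genes stood apart in their stem: 6 had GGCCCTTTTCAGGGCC and 2 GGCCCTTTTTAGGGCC. The sites below, which set the end of the regular histone mRNA, are those of 9 members called in some comparison, the members with most reads of each type among them. Each is printed 5′ to 3′ in lower case with the 16-base stem-loop in capitals.
HIST1H1C: cccaaaaGGCTCTTTTCAGAGCCaccactg
HIST1H1E: acccaaaGGCTCTTTTCAGAGCCacccacc
HIST1H2AC: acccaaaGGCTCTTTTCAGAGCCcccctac
HIST2H2AC: gaccaaaGGCTCTTTTTAGAGCCacccaag
HIST2H2BE: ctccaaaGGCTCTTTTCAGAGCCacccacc
HIST1H2BK: ccccaaaGGCTCTTTTAAGAGCCacttaaa
HIST1H2BC: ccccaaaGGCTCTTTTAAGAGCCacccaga
HIST1H3H: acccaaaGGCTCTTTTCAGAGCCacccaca
HIST1H4H: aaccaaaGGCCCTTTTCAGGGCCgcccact
The stem-loops of HIST1H1C (chr6:26055972-26055987, minus strand) and HIST1H1E (chr6:26157323-26157338, plus strand) have identical capitals. In HIST1H2AC it lies at chr6:26124897-26124912 on the plus strand, and in HIST2H2AC at chr1:149858941-149858956 on the plus strand. The H2B sites lie on the minus strand at chr1:149857738-149857753 in HIST2H2BE, chr6:27114145-27114160 in HIST1H2BK and chr6:26123700-26123715 in HIST1H2BC. HIST1H3H (chr6:27778294-27778309) is on the plus strand and HIST1H4H (chr6:26285359-26285374) on the minus strand. The site lay 22 to 56 bases after the stop codon, in the 3′ UTR. HIST2H2BF had no match in the window, and HIST2H2BC is annotated as a pseudogene with no coding sequence.

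Promoter windows of RefSeq (GRCh38.p14, 250 bases before to 50 after the start) were matched for 44 members. The octamer ATTTGCAT, the letters read by the factor Oct-1 (gene POU2F1), was found on either strand in 7 of 10 H2A windows (70%), 11 of 15 H2B windows (73.3%), 1 of 8 H3 windows (12.5%) and 0 of 4 H1 and 0 of 7 H4 windows. Among all 27305 RefSeq windows 492 (1.8%) held it. CCAAT was found in every H1, H2A, H2B and H3 window and in 1 of 7 H4 windows, against 35.7% of all windows. A match describes the letters and does not show that a factor was bound. The window of HIST2H2BE, the member with most reads, is printed with the octamer in capitals because it overlaps the window of HIST2H2AC on the other strand, whose changes are set beside those of HIST2H2BE below.
HIST2H2BE: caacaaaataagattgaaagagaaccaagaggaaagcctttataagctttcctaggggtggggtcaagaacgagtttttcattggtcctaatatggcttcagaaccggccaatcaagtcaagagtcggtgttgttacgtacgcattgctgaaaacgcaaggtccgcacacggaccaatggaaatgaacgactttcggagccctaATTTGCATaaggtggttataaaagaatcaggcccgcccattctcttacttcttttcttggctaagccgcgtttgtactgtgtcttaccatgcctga
This window is chr1:149886633-149886932 on the minus strand, with the octamer starting 46 bases before the HIST2H2BE start. The window of HIST1H2BC follows, since HIST1H2BC gave some of the clearest changes and shares its region with HIST1H2AC.
HIST1H2BC: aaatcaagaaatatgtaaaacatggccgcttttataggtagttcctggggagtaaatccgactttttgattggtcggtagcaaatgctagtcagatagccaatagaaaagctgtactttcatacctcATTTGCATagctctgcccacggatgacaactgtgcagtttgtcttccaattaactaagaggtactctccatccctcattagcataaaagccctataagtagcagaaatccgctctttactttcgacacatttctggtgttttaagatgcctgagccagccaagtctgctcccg
It is chr6:26123877-26124176 on the minus strand, with the octamer starting 123 bases before the start.

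The libraries held 26760897 to 48076414 gene counts, and 34.7 to 39.9% of the reads in the files were set aside as not uniquely aligned. Within each group the replicates differed by more than sampling noise, from a chi-square of 7.52 per degree of freedom in control to 41.4 in ERb5. ESR2 had 25 and 20 counts in the control libraries, 23 and 21 in those of ERb_KO, 6 and 18 in those of ERb1, and 7 and 10 in those of ERb5, so its counts do not follow the labels, and the groups are named below as the libraries are labelled. Of the glial markers SOX2 reached 10 CPM in every library, OLIG2, S100B and AQP4 had 0 counts in all 8 and GFAP stayed at or below 0.137 CPM, while 9 of 9 luminal epithelial markers, KRT8 and ESR1 among them, passed 10 CPM in every library. Of 7 mesenchymal glioma markers FN1 and CD44 did so. The summed luminal markers differed between groups, at 12130 to 12490 CPM in ERb_KO, 14020 to 14810 in control, 15890 to 16980 in ERb5 and 16960 to 18000 in ERb1. The summed mesenchymal markers ran the other way, at 200.8 to 249 CPM in ERb_KO, 154 to 162 in control, 129.5 to 132 in ERb5 and 106 to 123 in ERb1. These markers thus differed between the groups compared below, and their part in the histone results was not tested. ERb5 replicate 2 stood apart for the histone cluster genes: it was the highest of 8 libraries for 27 of the 47 (57.4%, against 21.5% of all genes tested), and ERb1 replicate 1 was the highest for 10. The correlation across genes between transcript GC content and a library's deviation from the mean ran from −0.55 in ERb_KO replicate 1 to 0.35 in ERb1 replicate 1 and 0.33 in ERb5 replicate 2; genes are not independent replicates and share the library. The members are richer in GC (median 57.6% over 45) than all genes tested (48.7%). Counts of calls are therefore also given without single libraries and with the GC and length trend of each library removed, where these moved them. HIST1H2BG and HIST1H2BF had no GC content or length here and were left uncorrected in that fit. Their calls there do not show how they stand once the trend is removed. The share of all genes called is given for the reported fit alone, at an adjusted p under 0.05. No share of all genes is given for an unadjusted p. Counts at an unadjusted p therefore cannot be read as an excess over all genes. Whether a rise or fall in calls under another setting follows one over all genes was not tested.

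The 47 members made up 0.0548 to 0.0993% of the gene counts of a library. Reads were concentrated in a few of them: HIST2H2BE held 31.5% of all member counts, HIST1H1C 17.7%, HIST1H2BK 13.3%, HIST1H2BD 11% and HIST1H2AC 4.69%, which together made 78.2%. By type, H2B genes took 63.1%, H1 18.6%, H2A 10.9%, H3 4.54% and H4 2.8%. Some H2A, H3 and H4 copies, named below, cannot be told apart by these reads and add nothing to the shares. No H1 or H2B gene is among those copies. Per kilobase of exon the order changed, with means over 8 libraries of 190.1 CPM per kb for HIST1H2BK, 173 for HIST1H1C, 99.9 for HIST2H2BE and 91 for HIST1H2BD. The ranges over libraries of HIST1H2BK (149.8 to 274 CPM per kb) and HIST1H1C (127 to 246) overlapped, as did those of HIST2H2BE (76.9 to 131) and HIST1H2BD (67.4 to 141). The highest per kilobase within the other types were HIST1H2AE (25.6) for H2A, HIST1H3H (14.1) for H3 and HIST1H4H (6.85) for H4. HIST1H2BG and HIST1H2BF have no gene model here and so no level per kilobase. The exon lengths are those of GENCODE v44lift37. The annotation used for counting is not known and may hold other lengths, so the order per kilobase is uncertain.

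Of the 47 members, 39 reached 10 counts in all 8 libraries and 8 in 2 to 7 of them, and none entered through 1 group alone. All 47 passed the filter on low counts and were tested. Just inside the rule, HIST1H4B reached 10 counts in 2 libraries (4 to 15 counts over all 8) and HIST2H3D in 3 (4 to 13). Just outside it with 1 library were HIST1H2AH (0 to 15), HIST1H4A (0 to 11), HIST1H3C (3 to 10) and HIST1H1T (0 to 10). Copies that cannot be told apart by a 50-base read had no value: HIST2H2AA3, HIST2H2AA4, HIST2H3A, HIST2H3C, HIST2H4A and HIST2H4B, none of whose 50-base windows occur only once in the genome, had 0 counts in every library. In 7 members under 50% of such windows were unique: HIST1H2AI, HIST1H2BK, HIST2H2BF, HIST2H3D, HIST2H2BC, HIST1H4J and HIST1H4K, from 42.8% in HIST1H2BK to 7.4% in HIST1H4K, and their levels are uncertain.

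**Figure D1:**
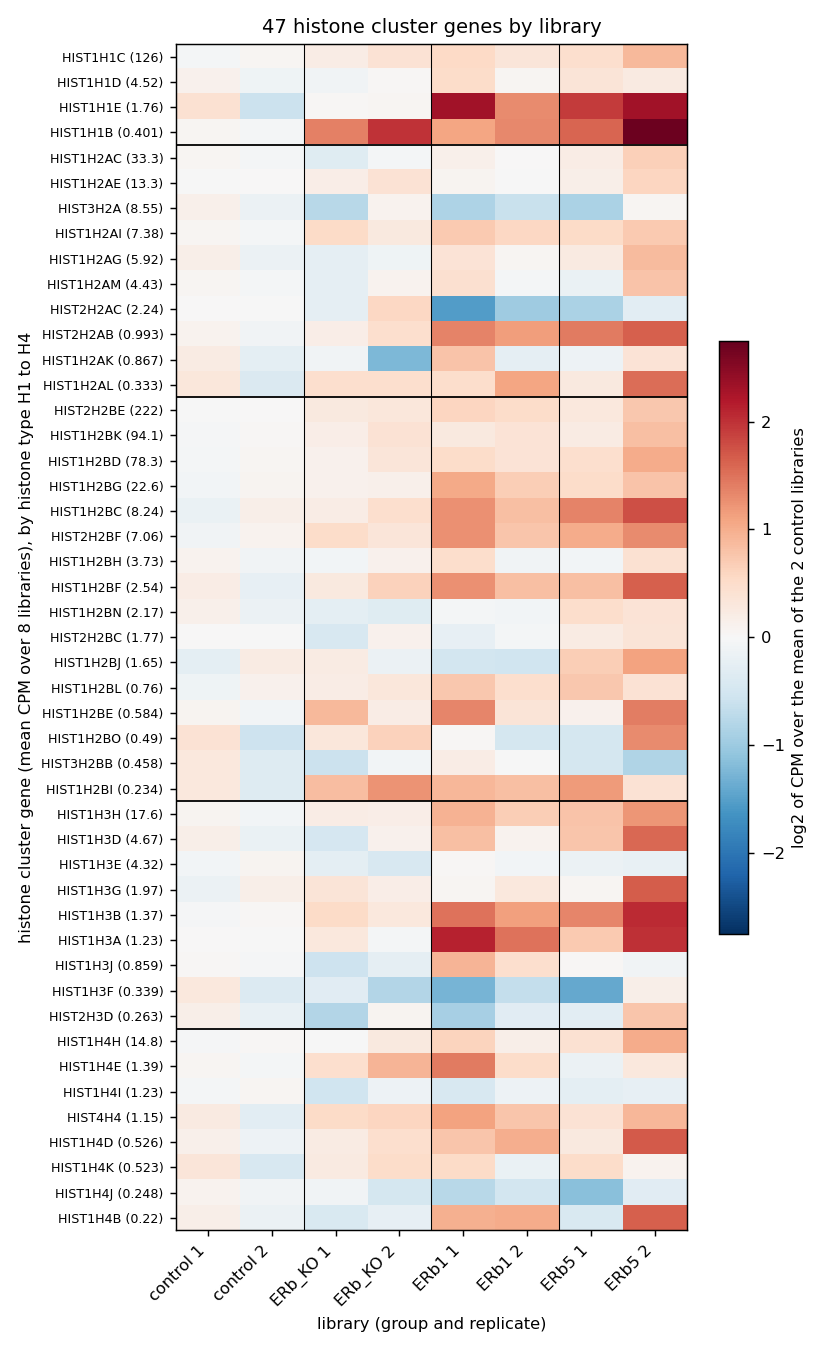
Level of each of the 47 histone cluster genes (rows, grouped by type, with the mean CPM in brackets) in each of the 8 libraries (columns), as the log2 ratio to the mean of the 2 control libraries. The column of ERb5 replicate 2 is the highest for 27 genes, and HIST1H1E, HIST1H3A and HIST1H3B are above control in both ERb1 and both ERb5 libraries.

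Summed over all 47 members, the control libraries had 554.5 and 567 CPM, those of ERb_KO 623 and 689, those of ERb1 800 and 726, and those of ERb5 715 and 1004. All 6 libraries of the other groups lay above both control libraries, and ERb5 replicate 2 was 1.4 times its replicate. In RNA from whole cultures, more cells that make histone mRNA and more histone mRNA per cell cannot be told apart. The H1 sum was 98.3 and 105 CPM for control, 116 and 134 for ERb_KO, 150.4 and 128 for ERb1, and 143 and 189 for ERb5. For H2B the control libraries had 339.7 and 354 CPM, those of ERb_KO 403 and 433, those of ERb1 506 and 476, and those of ERb5 441 and 623.5, so that control was lowest. The H3 sum was 24.9 and 23.3 CPM in control and 24.6 and 24.7 in ERb_KO, against 41.4 and 33.5 in ERb1 and 35.6 and 52.8 in ERb5, so that the ERb1 and ERb5 libraries did not overlap the other 4. For H4 the control libraries had 16.1 and 15.9 CPM, those of ERb_KO 16.3 and 19.7, those of ERb1 24.8 and 18.6, and those of ERb5 19.8 and 29.7. The H2A sum overlapped between groups, with 75.5 and 69 CPM for control, 63.7 and 77.6 for ERb_KO, 77.6 and 70.6 for ERb1, and 75.7 and 108.9 for ERb5. These sums were not tested, and 2 libraries a group give their spread only roughly. They leave out the H2A, H3 and H4 copies that the reads cannot tell apart.

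**Figure D2:**
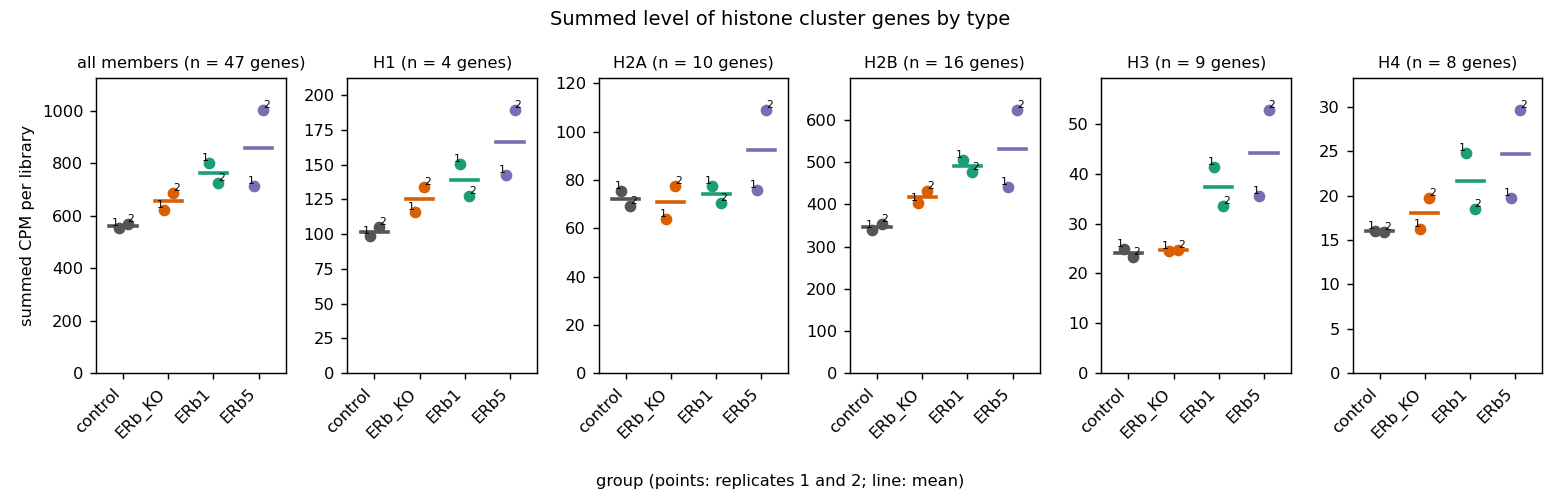
Summed CPM (y axis, from 0) of all 47 members and of each histone type in the 4 groups (x axis). Points are replicates 1 and 2 and lines are means; the H3 sums of ERb1 and ERb5 lie at 33.5 to 52.8 CPM, above the 23.3 to 24.9 CPM of control and ERb_KO.

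In at least 1 of the 6 comparisons 23 of the 47 members (48.9%) were called, against 44.2% of all genes tested. Among the 4 H1 genes, HIST1H1E was called in 4 comparisons and HIST1H1C and HIST1H1B in 1 each. HIST1H1E (chr6:26156557-26157343, 1 exon), a linker histone gene, had 0.924 and 0.464 CPM in the control libraries, 0.711 and 0.725 in those of ERb_KO, 3.46 and 1.72 in those of ERb1 and 2.64 and 3.42 in those of ERb5. All 4 libraries of ERb1 and ERb5 lay above all 4 of control and ERb_KO. Its log2 fold change was 1.8 ± 0.39 (edgeR, adjusted p = 0.00718) in ERb1 against ERb_KO and 2.07 ± 0.39 (edgeR, adjusted p = 0.00446) in ERb5 against ERb_KO. Against control it was 1.83 ± 0.39 (edgeR, adjusted p = 0.0221) in ERb1 and 2.1 ± 0.38 (edgeR, adjusted p = 0.00416) in ERb5. HIST1H1C (chr6:26055968-26056698, 1 exon), the linker histone gene with most reads, had 92.9 and 101 CPM in the control libraries, 111 and 129 in those of ERb_KO, 141 and 121 in those of ERb1 and 134 and 180.2 in those of ERb5. It was called higher in ERb5 against control only, by 0.697 ± 0.14 (edgeR, adjusted p = 0.00771), and all 6 libraries outside control lay above both control libraries. HIST1H1B, a further linker histone gene near the lower limit of detection, had 0.146 and 0.137 CPM in the control libraries, 0.367 and 0.56 in those of ERb_KO, 0.3004 and 0.351 in those of ERb1 and 0.431 and 0.918 in those of ERb5. Its 2 control libraries were the lowest of the 8, and ERb5 was higher than control by 2.19 ± 0.52 (edgeR, adjusted p = 0.0178). HIST1H1D had 4.4 and 3.74 CPM in the control libraries, 3.81 and 4.18 in those of ERb_KO, 5.75 and 4.26 in those of ERb1 and 5.2 and 4.81 in those of ERb5 and was called in no comparison.

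Of the 10 H2A genes, 5 were called in some comparison (50%, against 44.2% of all genes), 4 of them higher and HIST2H2AC lower. HIST2H2AB (chr1:149859019-149859515) had 0.559 and 0.491 CPM in the control libraries, 0.597 and 0.725 in those of ERb_KO, 1.35 and 1.16 in those of ERb1 and 1.41 and 1.65 in those of ERb5, with both ERb1 and both ERb5 libraries above the other 4. It was higher by 0.92 ± 0.29 (edgeR, adjusted p = 0.0357) in ERb1 and by 1.22 ± 0.28 (edgeR, adjusted p = 0.011) in ERb5 against ERb_KO. Against control its change was 1.23 ± 0.29 (edgeR, adjusted p = 0.0377) in ERb1 and 1.53 ± 0.29 (edgeR, adjusted p = 0.00514) in ERb5. HIST2H2AC (chr1:149858468-149858961) had 2.77 and 2.7 CPM in the control libraries, 2.32 and 4.08 in those of ERb_KO, 0.939 and 1.38 in those of ERb1 and 1.49 and 2.24 in those of ERb5. All 4 ERb1 and ERb5 libraries lay below the other 4, and it was the 1 member called lower in any comparison, with a log2 change of -1.4 ± 0.32 (edgeR, adjusted p = 0.00909) in ERb1 against ERb_KO. HIST1H2AC (chr6:26124373-26139344), the H2A gene with most reads, had 32 and 30.03 CPM in the control libraries, 24.7 and 29.9 in those of ERb_KO, 34.4 and 31 in those of ERb1 and 35.5 and 49.2 in those of ERb5. It was higher in ERb5 than in ERb_KO by 0.63 ± 0.16 (edgeR, adjusted p = 0.014), with no overlap between those groups. HIST1H2AG had 5.76 and 4.61 CPM in the control libraries, 4.38 and 4.78 in those of ERb_KO, 6.76 and 5.39 in those of ERb1 and 6.15 and 9.55 in those of ERb5, and it too was higher in ERb5 than in ERb_KO, by 0.77 ± 0.22 (edgeR, adjusted p = 0.0255). HIST1H2AI, of which 36.6% of windows are unique, had 5.62 and 5.24 CPM in the control libraries, 7.8 and 6.59 in those of ERb_KO, 8.9 and 8.08 in those of ERb1 and 7.84 and 9.001 in those of ERb5. Its control libraries were the 2 lowest of 8, with changes against control of 0.64 ± 0.16 (edgeR, adjusted p = 0.0453) in ERb1 and 0.63 ± 0.16 (edgeR, adjusted p = 0.0232) in ERb5. HIST1H2AE, the H2A gene highest per kilobase, had 11.5 and 11.8 CPM in the control libraries, 13.2 and 15.3 in those of ERb_KO, 12.2 and 11.6 in those of ERb1 and 12.9 and 17.6 in those of ERb5 and was not called.

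Of the 16 H2B genes, which held most of the reads, 9 were called in some comparison (56.2%, against 44.2% of all genes). HIST1H2BC (chr6:26086545-26124154) had 3.96 and 5.02 CPM in the control libraries, 5.19 and 6.23 in those of ERb_KO, 10.7 and 7.97 in those of ERb1 and 11.5 and 15.4 in those of ERb5. The groups did not overlap: ERb5 was highest, then ERb1, then ERb_KO, and control was lowest. Its change against ERb_KO was 0.703 ± 0.21 (edgeR, adjusted p = 0.0289) in ERb1 and 1.24 ± 0.205 (edgeR, adjusted p = 0.00257) in ERb5. Against control it was 1.04 ± 0.21 (edgeR, adjusted p = 0.0174) in ERb1 and 1.58 ± 0.21 (edgeR, adjusted p = 0.000609) in ERb5. HIST2H2BF (chr1:149754245-149783928), with 29.4% unique windows, had 3.96 and 4.56 CPM in the control libraries, 6.01 and 5.4 in those of ERb_KO, 10.2 and 7.27 in those of ERb1 and 8.62 and 10.5 in those of ERb5. Both ERb1 and both ERb5 libraries lay above the other 4, by 0.596 ± 0.19 (edgeR, adjusted p = 0.0402) for ERb1 and 0.73 ± 0.19 (edgeR, adjusted p = 0.0168) for ERb5 against ERb_KO. Against control the change of HIST2H2BF was 1.02 ± 0.19 (edgeR, adjusted p = 0.0137) in ERb1 and 1.16 ± 0.19 (edgeR, adjusted p = 0.00252) in ERb5. HIST1H2BG had 15.6 and 17.4 CPM in the control libraries, 17.8 and 18.2 in those of ERb_KO, 33.8 and 26.4 in those of ERb1 and 23.4 and 28.4 in those of ERb5, again with ERb1 and ERb5 above the other 4 libraries. Its change was 0.74 ± 0.15 (edgeR, adjusted p = 0.00484) in ERb1 and 0.53 ± 0.15 (edgeR, adjusted p = 0.0236) in ERb5 against ERb_KO. Against control the values of HIST1H2BG were 0.87 ± 0.15 (edgeR, adjusted p = 0.00776) and 0.65 ± 0.15 (edgeR, adjusted p = 0.0143).

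The 3 H2B genes with most reads were called with log2 changes of at most 0.76. HIST2H2BE (chr1:149856009-149858232, 1 exon of 2224 bases) had 171 and 176 CPM in the control libraries, 210.1 and 214 in those of ERb_KO, 259 and 244 in those of ERb1 and 211 and 292 in those of ERb5. Both control libraries were below the other 6, and the change against control was 0.54 ± 0.13 (edgeR, adjusted p = 0.0439) in ERb1 and 0.54 ± 0.13 (edgeR, adjusted p = 0.0208) in ERb5. HIST1H2BK (chr6:27114140-27114634) had 74.2 and 77.9 CPM in the control libraries, 86.9 and 99.5 in those of ERb_KO, 91 and 98.7 in those of ERb1 and 88.9 and 136 in those of ERb5, and was higher in ERb5 than in control by 0.56 ± 0.16 (edgeR, adjusted p = 0.0442). HIST1H2BD (chr6:26158350-26171577) had 58.1 and 61.7 CPM in the control libraries, 64.6 and 75.7 in those of ERb_KO, 84.7 and 78.2 in those of ERb1 and 82 and 122 in those of ERb5, with the control libraries lowest. It was higher in ERb5 by 0.54 ± 0.16 (edgeR, adjusted p = 0.0285) against ERb_KO and by 0.76 ± 0.16 (edgeR, adjusted p = 0.00889) against control. HIST1H2BJ had 1.19 and 1.67 CPM in the control libraries, 1.68 and 1.28 in those of ERb_KO, 1.01 and 0.971 in those of ERb1 and 2.27 and 3.09 in those of ERb5; ERb5 lay above and ERb1 below all other libraries. This was the 1 member called between the isoforms, 1.42 ± 0.28 (edgeR, adjusted p = 0.0129) in ERb5 against ERb1. It was also higher in ERb5 by 0.83 ± 0.26 (edgeR, adjusted p = 0.0365) against ERb_KO and by 0.901 ± 0.26 (edgeR, adjusted p = 0.0433) against control. HIST1H2BF had 1.68 and 1.26 CPM in the control libraries, 1.77 and 2.27 in those of ERb_KO, 3.53 and 2.6 in those of ERb1 and 2.61 and 4.59 in those of ERb5 and a change of 1.27 ± 0.303 (edgeR, adjusted p = 0.0172) in ERb5 against control. HIST1H2BN had 2.33 and 1.88 CPM in the control libraries, 1.74 and 1.68 in those of ERb_KO, 2.03 and 2.004 in those of ERb1 and 2.93 and 2.75 in those of ERb5 and a change of 0.73 ± 0.21 (edgeR, adjusted p = 0.0256) in ERb5 against ERb_KO, the 2 ERb5 libraries being the highest of the 8.

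For H3, 5 of 9 genes were called in some comparison (55.6%, against 44.2% of all genes). HIST1H3H (chr6:27777829-27779078), the H3 gene with most reads, had 12.5 and 11.2 CPM in the control libraries, 13.7 and 13.4 in those of ERb_KO, 22.9 and 19 in those of ERb1 and 20.4 and 27.4 in those of ERb5. Both ERb1 and both ERb5 libraries were above the other 4, by 0.62 ± 0.16 (edgeR, adjusted p = 0.0167) for ERb1 and 0.82 ± 0.16 (edgeR, adjusted p = 0.00568) for ERb5 against ERb_KO. Against control HIST1H3H changed by 0.82 ± 0.16 (edgeR, adjusted p = 0.0162) in ERb1 and 1.01 ± 0.16 (edgeR, adjusted p = 0.00199) in ERb5. HIST1H3A (chr6:26020679-26021186) had 0.584 and 0.573 CPM in the control libraries, 0.711 and 0.56 in those of ERb_KO, 2.52 and 1.63 in those of ERb1 and 0.948 and 2.31 in those of ERb5, with the ERb5 replicates far apart and the same 4 libraries highest. Its change was 1.65 ± 0.41 (edgeR, adjusted p = 0.0138) in ERb1 and 1.3 ± 0.42 (edgeR, adjusted p = 0.0395) in ERb5 against ERb_KO. The values of HIST1H3A against control were 1.8 ± 0.41 (edgeR, adjusted p = 0.0323) in ERb1 and 1.46 ± 0.43 (edgeR, adjusted p = 0.0435) in ERb5. HIST1H3B had 0.657 and 0.682 CPM in the control libraries, 0.964 and 0.824 in those of ERb_KO, 1.88 and 1.47 in those of ERb1 and 1.7 and 2.79 in those of ERb5, without overlap between these 4 libraries and the other 4. Its calls were 1.3 ± 0.3005 (edgeR, adjusted p = 0.0108) in ERb5 against ERb_KO, 1.3 ± 0.32 (edgeR, adjusted p = 0.0428) in ERb1 against control and 1.72 ± 0.31 (edgeR, adjusted p = 0.0039) in ERb5 against control. HIST1H3D had 3.7 and 2.89 CPM in the control libraries, 2.41 and 3.56 in those of ERb_KO, 5.86 and 3.51 in those of ERb1 and 5.6 and 9.81 in those of ERb5, and ERb5 was higher by 1.38 ± 0.32 (edgeR, adjusted p = 0.0124) against ERb_KO and 1.21 ± 0.32 (edgeR, adjusted p = 0.0299) against control. HIST1H3J had 0.803 and 0.764 CPM in the control libraries, 0.528 and 0.659 in those of ERb_KO, 1.5 and 1.07 in those of ERb1 and 0.804 and 0.735 in those of ERb5, with both ERb1 libraries highest, and a change of 1.1 ± 0.305 (edgeR, adjusted p = 0.0228) in ERb1 against ERb_KO. HIST1H3G, among the 3 highest H3 genes per kilobase, had 1.29 and 1.61 CPM in the control libraries, 1.86 and 1.65 in those of ERb_KO, 1.5 and 1.78 in those of ERb1 and 1.49 and 4.59 in those of ERb5; ERb5 replicate 2 alone was high, and no comparison called it.

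For H4, 1 of 8 genes was called (12.5%, against 44.2% of all genes). HIST1H4H (chr6:26277837-26285866) had 11.4 and 11.8 CPM in the control libraries, 11.5 and 14 in those of ERb_KO, 17.8 and 13 in those of ERb1 and 15.4 and 23.6 in those of ERb5, with ERb5 replicate 2 highest. It was higher in ERb5 by 0.61 ± 0.21 (edgeR, adjusted p = 0.0463) against ERb_KO and by 0.74 ± 0.21 (edgeR, adjusted p = 0.0357) against control. HIST1H4E had 0.997 and 0.928 CPM in the control libraries, 1.33 and 1.84 in those of ERb_KO, 2.59 and 1.36 in those of ERb1 and 0.862 and 1.18 in those of ERb5, and HIST1H4I had 1.36 and 1.47 CPM in the control libraries, 0.964 and 1.28 in those of ERb_KO, 1.05 and 1.28 in those of ERb1 and 1.18 and 1.21 in those of ERb5. Neither was called, and for HIST1H4I the control libraries were the 2 highest of 8.

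Counted over the 47 members, none was called between ERb_KO and control. In ERb_KO against control 0 were higher and 0 lower at an adjusted p under 0.05, where 17.5% of all 13915 genes tested were called (8.98% higher and 8.52% lower). At an unadjusted p under 0.05 there were 3, with no share of all genes to set beside them, and DESeq2 called 0. The median log2 change was 0.19 (all genes 0.01), 30 of 47 were positive, and 22 had both ERb_KO libraries above and 7 both below control, where 69.2% of all genes had groups without overlap. With the GC and length trend removed, 5 members were called higher, HIST1H1B, HIST1H1C, HIST1H2AE, HIST1H2AI and HIST1H2BK, with the median at 0.34.

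In ERb1 against ERb_KO, 8 members were higher and 1, HIST2H2AC, lower, where 24.9% of all genes were called (12.4% higher and 12.5% lower). The median change was 0.26 (all genes -8.21e-05), 35 of 47 were positive, and 24 had both ERb1 libraries above and 6 both below ERb_KO, where 65.3% of all genes had groups without overlap. Leaving out ERb1 replicate 1 left none of the 9 calls (adjusted p 0.0516 to 0.294), ERb_KO replicate 1 left HIST1H2BG and HIST2H2AC (the other 7 at 0.0524 to 0.184), and ERb_KO replicate 2 left HIST1H1E and HIST1H2BG (the other 7 at 0.0529 to 0.162). Without ERb1 replicate 2 the call of HIST2H2AB was lost (adjusted p = 0.0541, edgeR). With the GC and length trend removed the median fell to 0.03, with 5 members higher and HIST1H2AE and HIST2H2AC lower. The 5 include HIST1H2BG, which was left uncorrected.

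In ERb5 against ERb_KO, 15 members were higher and none lower, where 28.2% of all genes were called (14.7% higher and 13.5% lower). In 23 members both ERb5 libraries lay above and in 2 both below ERb_KO, where 66.0% of all genes had groups without overlap. The median change was 0.44 (all genes 0.01), and H3 had the largest median of the types (0.76, 4 of 9 called). At an unadjusted p under 0.05 there were 18 in either direction, with no share of all genes to set beside them. DESeq2 called 14 higher. Without ERb5 replicate 2 the calls that held were HIST1H1E, HIST1H2BC and HIST1H3H (the other 12 at adjusted p 0.0589 to 0.401 by edgeR), and the median fell to 0.14. Without ERb5 replicate 1, 22 were higher, and 1 of the 15, HIST1H2BN, was lost (adjusted p = 0.071). Without ERb_KO replicate 1, 4 were higher (11 calls lost, adjusted p 0.0546 to 0.224) and HIST2H2AC was called lower, and without ERb_KO replicate 2, 6 were higher (9 lost, 0.0568 to 0.164). With the GC and length trend removed 11 members were higher, HIST2H2AC was lower and the median was 0.22. The 11 include the uncorrected HIST1H2BG.

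Against control, which both comparisons share, ERb1 had 10 members higher and ERb5 18, with none lower by edgeR in either. In ERb1 4.06% of all genes were called (1.36% higher and 2.7% lower) and in ERb5 13.2% (6.85% higher and 6.31% lower). Both libraries lay above both control libraries for 25 members in ERb1 and 29 in ERb5, and below for 8 and 5, where 55.1% and 60.1% of all genes had groups without overlap. The medians were 0.44 and 0.60, beside 0.01 for all genes in both. With the GC and length trend removed they were 0.46 and 0.60. That fit had 12 and 21 members higher, and HIST2H2AC lower in ERb1. The uncorrected HIST1H2BG is in both counts, and the uncorrected HIST1H2BF in that of ERb5. For ERb1, leaving out ERb1 replicate 1 left no call (adjusted p 0.0641 to 0.171), control replicate 1 left HIST1H1E alone (0.0918 to 0.341 for the rest), control replicate 2 left HIST1H2BC and HIST1H2BG (0.0524 to 0.264), and ERb1 replicate 2 left 5 (0.0644 to 0.113). For ERb5, 8 calls held without ERb5 replicate 2 (adjusted p 0.0846 to 0.364 for the 10 lost, median 0.26), 6 without control replicate 1 (0.0542 to 0.347) and 6 without control replicate 2 (0.0516 to 0.192), while 24 were called without ERb5 replicate 1. HIST1H1E, HIST1H2BC, HIST1H3B, HIST1H3H and HIST2H2BF in ERb5 against control, and HIST1H1E, HIST1H2BC and HIST1H3H in ERb5 against ERb_KO, kept their call under every alternative run.

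Between the isoforms, ERb5 against ERb1, HIST1H2BJ was the 1 member higher and none was lower, where 4.66% of all genes were called (3.49% higher and 1.18% lower). In 10 members both ERb5 libraries lay above and in 4 both below ERb1, where 43.1% of all genes had groups without overlap. By an unadjusted p under 0.05 there were 8 in either direction, a count to which the share of 4.66% does not apply. DESeq2 called 1 higher and 0 lower. The call of HIST1H2BJ was lost without ERb1 replicate 1 (adjusted p = 0.0748), ERb1 replicate 2 (0.121) or ERb5 replicate 2 (0.0872, all by edgeR). The median change over the 47 was 0.19 (all genes −0.01). Without ERb5 replicate 1 there were 9 called higher, and without ERb5 replicate 2 there was none and the median was −0.04.

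**Figure D3:**
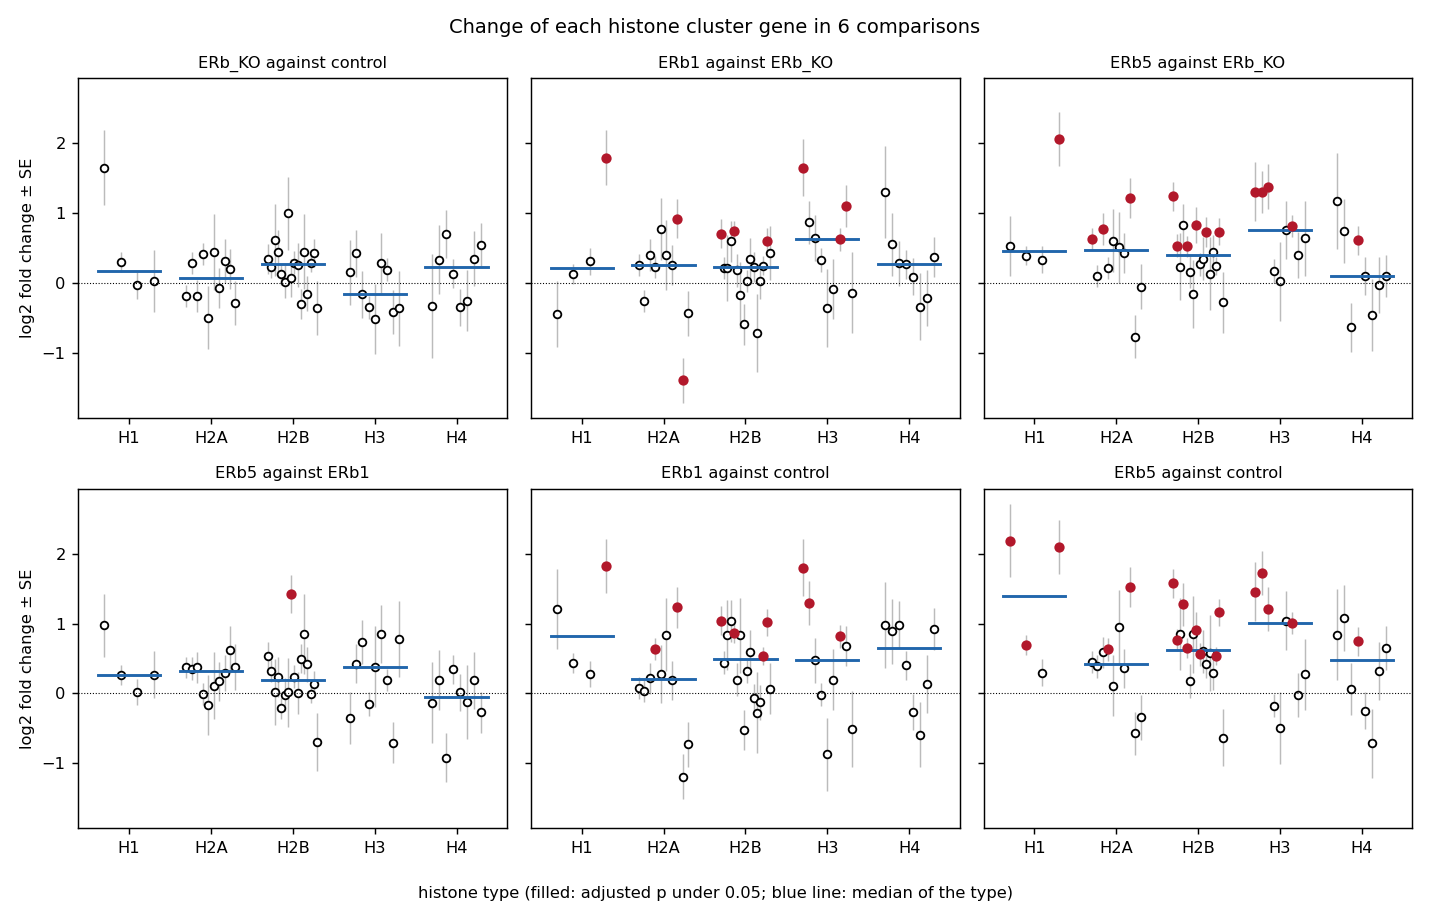
Log2 fold change ± SE (y axis) of each member, by histone type (x axis), in the 6 comparisons. Filled points passed an adjusted p of 0.05 and blue lines are medians of the type; filled points lie above 0 in every panel that has any, except HIST2H2AC (−1.40) in ERb1 against ERb_KO.

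The members were also set apart by what the annotation gives beyond the stem-loop. In 14 of 43 an extended transcript, more than 100 bases past the stem-loop or with more than 1 exon, is annotated. The other 29 form the class with the stem-loop end only. The classes rest on GENCODE v44lift37, which may differ from the annotation used for counting. HIST1H3J is in the extended class by its exon number alone, since its annotation ends 5 bases past the stem-loop. The median of the mean level was 6.28 CPM in the extended class (0.458 to 222) and 1.23 CPM in the stem-loop class (0.22 to 126), not corrected for length. HIST1H1C and HIST1H2BK, each with a stem-loop end only, were among the most abundant all the same. The median log2 change in ERb5 against control was 0.59 in both classes. There 6 of 14 and 9 of 29 were called higher, beside 6.85% of all genes. In ERb5 against ERb_KO the medians were 0.47 and 0.39, with 7 of 14 and 6 of 29 higher, beside 14.7% of all genes. For ERb1 against ERb_KO they were 0.26 and 0.23, where 12.4% of all genes were higher and 12.5% lower. The extended class had 3 of 14 higher, HIST1H3J among them, and the other class 3 higher and 1 lower of 29. Against control the medians were 0.42 and 0.32 in ERb1 and 0.10 and 0.25 in ERb_KO, the latter with no member called in either class. The difference between the classes was not tested. Reads of 50 bases counted per gene do not show which end an mRNA had. Among RNAs known to lack a poly(A) tail, 9 of 13 listed were in the files and 2 had enough counts to be tested. RPPH1, the RNA of RNase P, had 3.45 and 4.64 CPM in the control libraries, 2.16 and 2.77 in those of ERb_KO, 6.01 and 4.32 in those of ERb1 and 4.88 and 7.09 in those of ERb5. Its log2 change was 1.06 ± 0.26 (edgeR, adjusted p = 0.0126) in ERb1 and 1.29 ± 0.26 (edgeR, adjusted p = 0.00592) in ERb5 against ERb_KO, and ERb5 replicate 2 and ERb1 replicate 1 were its 2 highest libraries. RMRP, the RNA of RNase MRP, had 5.96 and 4.48 CPM in the control libraries and 2.91 and 3.82 in those of ERb_KO. It had 9.09 and 4.09 in those of ERb1 and 5.31 and 5.73 in those of ERb5. Both of its ERb_KO libraries were thus lowest, as for RPPH1, but RMRP was not called. In ERb1 against ERb_KO 2 of the 2 tested had an unadjusted p under 0.05 (edgeR), and the share of all genes at that limit is not given. TERC, SCARNA2 and the other 5 had at most 10 counts in any library. Their part in the histone values was not tested.

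**Figure D4:**
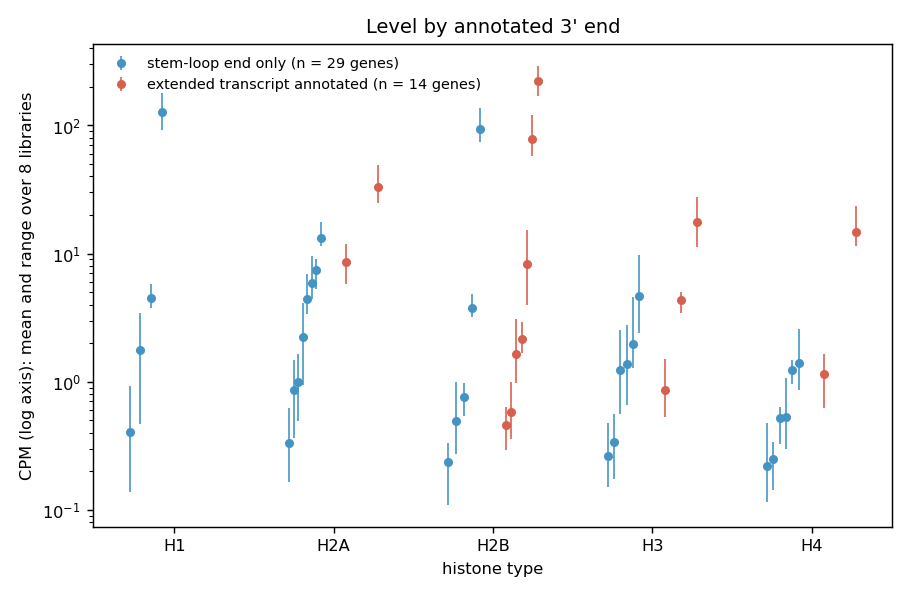
Mean CPM (points, log axis) with the range over 8 libraries (bars) of the 43 members with a stem-loop, by histone type and by whether an extended transcript, over 100 bases past the stem-loop or of more than 1 exon, is annotated. The median is 6.28 CPM with and 1.23 CPM without one, and the classes overlap in every type that has both. HIST1H3J counts as extended by its exon number alone.

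In 8 pairs the RefSeq promoter windows of an H2A and an H2B member overlap head to head, with starts 194 to 248 bases apart. In HIST2H2AC and HIST2H2BE, whose shared octamer is printed above, the means were 2.24 and 222 CPM, a ratio of 99.1 that is not corrected for length. In ERb1 against ERb_KO their log2 changes were −1.40 and 0.25, and in ERb1 against control −1.19 (not called) and 0.54 (called). HIST1H2AC and HIST1H2BC, at 33.3 and 8.24 CPM, changed by 0.63 and 1.24 in ERb5 against ERb_KO, both called. HIST1H2AG and HIST1H2BJ, at 5.92 and 1.65 CPM, changed by 0.77 and 0.83 in that comparison, both called, and by 0.40 and −0.59 in ERb1 against ERb_KO, neither called. HIST1H2AE and HIST1H2BG, at 13.3 and 22.6 CPM, were nearest in level, with a ratio of 1.71. In ERb1 against ERb_KO their log2 values were −0.26 (not called) and 0.74 (called), and in ERb5 against ERb_KO 0.10 (not called) and 0.53 (called). In the other 4 pairs, HIST3H2A with HIST3H2BB, HIST1H2AI with HIST1H2BL, HIST1H2AK with HIST1H2BN and HIST1H2AM with HIST1H2BO, the larger mean was 2.5 to 18.7 times the smaller.

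The clustered genes were set beside the variant histones outside the clusters. Of 12 listed, 11 were tested; H3F3A is listed at 0 in every library. Of all genes tested 17.5% were called in ERb_KO against control, 24.9% in ERb1 and 28.2% in ERb5 against ERb_KO. The counts of this and the next lists are to be read beside these shares. All of these comparisons use the same ERb_KO libraries, so a rise in ERb_KO and a fall against it are not separate observations. In ERb_KO against control 4 of 11 were higher and 0 lower (median 0.23). The count was 0 higher and 6 lower in ERb1 against ERb_KO (median −0.59), and 0 higher and 4 lower in ERb5 against ERb_KO (median −0.32). CENPA, the centromeric H3 variant, had 6.13 and 5.71 CPM in the control libraries, 14.2 and 15.9 in those of ERb_KO, 1.24 and 2.04 in those of ERb1 and 3.1 and 5.03 in those of ERb5, with ERb_KO highest. Its change was 1.34 ± 0.22 (edgeR, adjusted p = 0.0039) in ERb_KO against control, -3.14 ± 0.25 (edgeR, adjusted p = 1.19e-05) in ERb1 and -1.9 ± 0.23 (edgeR, adjusted p = 0.000519) in ERb5 against ERb_KO. H2AFZ, the replacement H2A found at promoters, had 157 and 153 CPM in the control libraries, 227 and 258 in those of ERb_KO, 122 and 149 in those of ERb1 and 148 and 151 in those of ERb5, and likewise ERb_KO lay above the other groups. Its 3 changes in the same order were 0.65 ± 0.11 (edgeR, adjusted p = 0.00476), -0.84 ± 0.11 (edgeR, adjusted p = 0.000464) and -0.701 ± 0.11 (edgeR, adjusted p = 0.0023). H3F3B, a replacement H3 gene, was higher in ERb_KO than in control by 0.75 ± 0.16 (edgeR, adjusted p = 0.0123), and had log2 values of -0.77 ± 0.16 (edgeR, adjusted p = 0.00645) in ERb1 and -0.32 ± 0.16 (edgeR, adjusted p = 0.154) in ERb5 against ERb_KO. H1F0, the replacement linker histone, had 0.24 ± 0.12 (edgeR, adjusted p = 0.195) in ERb_KO against control, -0.797 ± 0.12 (edgeR, adjusted p = 0.00116) in ERb1 and -0.41 ± 0.12 (edgeR, adjusted p = 0.0293) in ERb5 against ERb_KO. H2AFX, the variant phosphorylated at DNA breaks, had -0.85 ± 0.19 (edgeR, adjusted p = 0.00913) in ERb1 and -0.34 ± 0.19 (edgeR, adjusted p = 0.187) in ERb5 against ERb_KO.

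Against control the variant list had 0 higher and 2 lower in ERb1 (median −0.19), CENPA by -1.79 ± 0.26 (edgeR, adjusted p = 0.00243) and H1F0 by -0.56 ± 0.12 (edgeR, adjusted p = 0.0278). In ERb5 against control 0 of 11 were called by edgeR and 0 by DESeq2, with 3 at an unadjusted p under 0.05 and a median of −0.01; without ERb5 replicate 1, 2 were higher and without ERb5 replicate 2, 2 lower. Leaving out control replicate 2 left 0 of the 4 calls in ERb_KO against control, and control replicate 1 or ERb_KO replicate 2 left 2. Against ERb_KO 4 were lower in ERb1 without ERb1 replicate 1. In ERb5 against ERb_KO 6 were lower without ERb5 replicate 2, and in ERb1 against control 1 was lower whichever library was left out. In ERb5 against ERb1 CENPA was the 1 gene called, higher by 1.24 ± 0.27 (edgeR, adjusted p = 0.0213), and 6 were called higher without ERb5 replicate 1 and 0 without any other library. Once the GC and length trend was removed, 6 variants were higher in ERb_KO against control, 8 lower in ERb1 and 6 lower in ERb5 against ERb_KO, 3 lower in ERb1 and 1 lower in ERb5 against control, and 2 higher in ERb5 against ERb1. With no filter on low counts 7 were higher in ERb5 against ERb1, 4 lower in ERb1 against control and 6 lower in ERb5 against ERb_KO. That setting gave 2 higher and 1 lower in ERb5 against control. With only the groups compared 4 were lower in ERb1 against control.

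Genes of S phase, when most clustered histone mRNA is made, were mostly lower in ERb1 and ERb5 than in ERb_KO. The 30 genes listed serve replication licensing, DNA synthesis, nucleotide supply and cell cycle control, the last with CCNE1, CCNE2, CCNA2, CDK2 and E2F2. In ERb_KO against control 13 were higher and 1 lower (median 0.39), where 8.98% of all genes were higher and 8.52% lower. For ERb1 against ERb_KO 1 was higher, CCNE1, and 23 lower (median −0.88), and in ERb5 against ERb_KO 0 higher and 20 lower (median −0.64), where 12.5% and 13.5% of all genes were lower. Against control 0 were higher and 15 lower in ERb1 (median −0.49) and 0 higher and 11 lower in ERb5 (median −0.26), where 2.7% and 6.31% of all genes were lower. RRM2, the small subunit of ribonucleotide reductase, had 131 and 101 CPM in the control libraries, 252 and 220 in those of ERb_KO, 32.1 and 34.7 in those of ERb1 and 49.5 and 57.1 in those of ERb5. Both ERb1 and both ERb5 libraries of RRM2 lay below control, and ERb_KO lay above it, with 1.03 ± 0.13 (edgeR, adjusted p = 0.00114) in ERb_KO against control, -2.82 ± 0.14 (edgeR, adjusted p = 1.91e-06) in ERb1 and -2.15 ± 0.14 (edgeR, adjusted p = 5.83e-05) in ERb5 against ERb_KO. CCNA2, cyclin A of S phase and G2, had 24.8 and 20.4 CPM in the control libraries, 49 and 47 in those of ERb_KO, 5.67 and 8.24 in those of ERb1 and 13.5 and 16.2 in those of ERb5, in the same order of groups. CDC45, of the replicative helicase, changed by -1.92 ± 0.12 (edgeR, adjusted p = 5.19e-06) in ERb1 and -1.34 ± 0.12 (edgeR, adjusted p = 0.000133) in ERb5 against ERb_KO. The counts against ERb_KO stayed between 18 and 23 lower in ERb1 and 14 and 19 lower in ERb5 when any 1 library was left out. Those in ERb_KO against control fell to 6, 3 and 4 higher without control replicate 1, control replicate 2 and ERb_KO replicate 1. The counts lower against control fell to 9 in ERb1 without control replicate 1 or ERb1 replicate 2, and in ERb5 to 4, 7 and 7 without control replicate 1, control replicate 2 and ERb5 replicate 1. With the GC and length trend removed 24 and 18 were lower in ERb1 and ERb5 against ERb_KO. The list was drawn up with earlier results of these libraries known, so its direction is no independent evidence. In ERb5 against ERb1 5 were higher and 0 lower, where 3.49% of all genes were higher, with 0 or 1 higher without ERb1 replicate 1, ERb1 replicate 2 or ERb5 replicate 2.

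**Figure D5:**
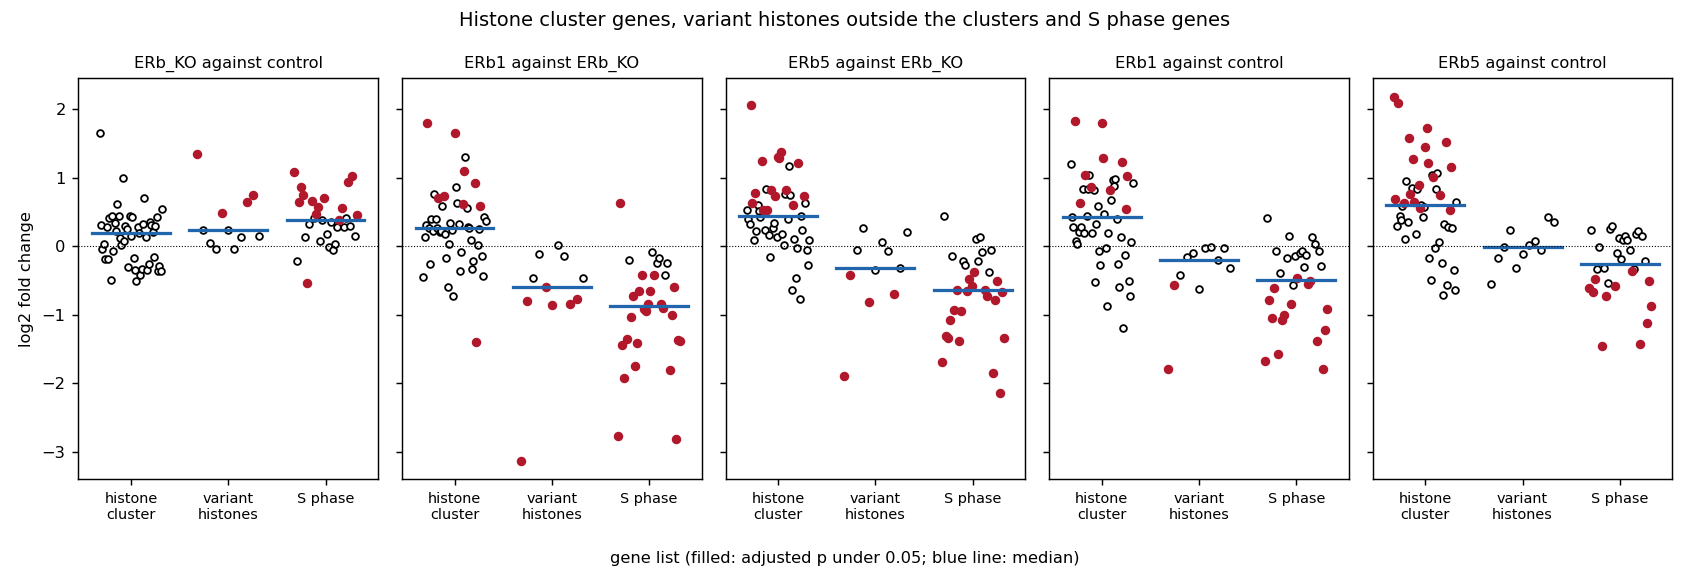
Log2 fold change (y axis) of the 47 histone cluster genes, 11 variant histones outside the clusters and 30 S phase genes (x axis) in 5 comparisons. Filled points passed an adjusted p of 0.05 and blue lines are medians; in ERb1 against ERb_KO the medians are 0.26, −0.59 and −0.88 in that order.

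The next lists are genes that make and destroy histone mRNA. Of 19 tested genes of transcription and 3′ processing, 3 were higher and 0 lower in ERb_KO against control, 0 higher and 4 lower in ERb1 and 2 higher and 5 lower in ERb5 against ERb_KO. SLBP, which binds the stem-loop, had 29.8 and 26.8 CPM in the control libraries, 33.4 and 37.2 in those of ERb_KO, 21.2 and 26.2 in those of ERb1 and 23.1 and 25.4 in those of ERb5, with both ERb_KO libraries highest. Its log2 value was 0.32 ± 0.13 (edgeR, adjusted p = 0.113) in ERb_KO against control, -0.57 ± 0.13 (edgeR, adjusted p = 0.0105) in ERb1 and -0.54 ± 0.13 (edgeR, adjusted p = 0.0135) in ERb5 against ERb_KO. NPAT, the cluster transcription factor, had log2 values of 0.53 ± 0.14 (edgeR, adjusted p = 0.0289) in ERb_KO against control and -0.58 ± 0.15 (edgeR, adjusted p = 0.0149) in ERb5 against ERb_KO, with -0.38 ± 0.14 (edgeR, adjusted p = 0.0715) in ERb1. CASP8AP2, a partner of NPAT at the clusters, had log2 values of 0.53 ± 0.16 (edgeR, adjusted p = 0.0423) in ERb_KO against control, -0.602 ± 0.16 (edgeR, adjusted p = 0.0206) in ERb1 and -0.67 ± 0.16 (edgeR, adjusted p = 0.0133) in ERb5 against ERb_KO. POU2F1, the octamer factor, had 44.8 and 42.3 CPM in the control libraries, 62.9 and 63.3 in those of ERb_KO, 42.6 and 50.2 in those of ERb1 and 64.2 and 62.5 in those of ERb5, and all 4 ERb_KO and ERb5 libraries lay above the other 4. It changed by 0.53 ± 0.11 (edgeR, adjusted p = 0.00889) in ERb_KO and 0.54 ± 0.11 (edgeR, adjusted p = 0.00698) in ERb5 against control, and by 0.45 ± 0.11 (edgeR, adjusted p = 0.0372) in ERb5 against ERb1. Of these 19 genes 0 were called in ERb_KO against control without control replicate 1, control replicate 2 or ERb_KO replicate 1. Against ERb_KO 1 was lower in ERb1 without either ERb_KO replicate and 0 without ERb1 replicate 1, and in ERb5 1 was lower without ERb_KO replicate 1 or ERb5 replicate 2 and 2 without ERb_KO replicate 2. Without the GC and length trend 1 was higher in ERb_KO against control and 4 in ERb5 against control, and in ERb5 against ERb_KO 0 were higher and 4 lower (median 0.0028). In ERb_KO against control 5 were higher with no filter on low counts, and 6 higher and 1 lower with only the groups compared. Of 8 decay genes 1 was called higher in ERb_KO against control, ERI1, the exonuclease that trims the histone mRNA end, by 0.52 ± 0.16 (edgeR, adjusted p = 0.0395). In ERb5, UPF1 was higher against ERb_KO by 0.37 ± 0.10 (edgeR, adjusted p = 0.0186) and XRN1 against control by 0.55 ± 0.13 (edgeR, adjusted p = 0.0195). In each of the 4 fits that left out 1 library, 0 decay genes were higher in ERb_KO against control. In ERb5 0 were higher against ERb_KO, and 0 against control, in any such fit except that without ERb5 replicate 1. After removal of the GC and length trend 0 decay genes were higher in ERb_KO against control (median 0.05, from 0.25), while ERb5 had 2 higher against ERb_KO and 2 against control. With no filter on low counts, and with only the groups compared, 4 were higher in ERb_KO against control, and in ERb5 against ERb_KO 2 were lower with no filter and 0 were called with only the groups compared.

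Chaperones that carry histones to DNA were called in both directions. Of 25 tested, 10 were higher and 1 lower in ERb_KO against control, 1 higher and 9 lower in ERb1 against ERb_KO, and 3 higher and 7 lower in ERb5 against ERb_KO. HJURP, which deposits CENPA, had 10.3 and 8.87 CPM in the control libraries, 17.1 and 16.2 in those of ERb_KO, 3.12 and 4.21 in those of ERb1 and 5.77 and 8.49 in those of ERb5. Its order of groups was that of CENPA, with 0.796 ± 0.19 (edgeR, adjusted p = 0.0177) in ERb_KO against control, -2.16 ± 0.205 (edgeR, adjusted p = 4.01e-05) in ERb1 and -1.23 ± 0.196 (edgeR, adjusted p = 0.00217) in ERb5 against ERb_KO. ASF1B, a chaperone of newly made H3 and H4, had log2 values of 0.496 ± 0.11 (edgeR, adjusted p = 0.0156) in ERb_KO against control and by -1.001 ± 0.12 (edgeR, adjusted p = 0.000164) in ERb1 against ERb_KO. ANP32E, which removes the H2AFZ protein from chromatin, had log2 values of 1.01 ± 0.15 (edgeR, adjusted p = 0.00209) in ERb_KO against control, -1.19 ± 0.15 (edgeR, adjusted p = 0.000279) in ERb1 and -0.93 ± 0.15 (edgeR, adjusted p = 0.00212) in ERb5 against ERb_KO. In ERb_KO against control 1 of the 10 was higher without control replicate 1, control replicate 2 or ERb_KO replicate 1, and in ERb1 6 were lower without ERb1 replicate 1. In ERb5 against ERb_KO 4 were lower without ERb_KO replicate 2 or ERb5 replicate 2. Of the chaperones 6 were, with the GC and length trend removed, higher in ERb_KO against control. HIRA, the chaperone of replacement H3, was higher in ERb5 by 0.67 ± 0.13 (edgeR, adjusted p = 0.00648) against control and 0.64 ± 0.13 (edgeR, adjusted p = 0.0163) against ERb1.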

How the data were processed

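Raw counts of reads for each gene were deposited as 1 table a library. The submitters' processing notes list bcl2fastq, TopHat2 2.0.8b and HTSeq, with hg19 as the genome build; the authors' HTSeq version, strand setting and annotation release, and any poly(A) selection, were not given here. The library protocol names a total RNA guide and the design text an RNA preparation. Overlapping genes on opposite strands cannot be told apart without the strand setting. In each file 5 entries that name no gene were left out, and 52.5 to 57.1% of the reads listed fell in genes.

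Genes were kept by filterByExpr of edgeR 4.0.16 in R 4.3.3 (minimum count 10, minimum total 15), scaled by TMM, and tested by edgeR's quasi-likelihood test with all 8 libraries in 1 fit. Benjamini-Hochberg adjustment covered the 13915 genes kept, and a gene was called at an adjusted p under 0.05. CPM are counts relative to the TMM-scaled library size. The fit was tested on simulated counts. Alternatives were DESeq2 1.42.0, other size factors and filters, the replicate number as a block, offsets for GC and length, the compared groups alone and each library left out.

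Annotation matched 69 of 72 histone symbols. Log2 changes are given for each called member, a fixed set of pathway genes and up to 4 called genes a list with the smallest adjusted p. Levels by library are given for called members and the 3 highest per kilobase of each type. The members and lists were chosen with earlier results of these data known.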

Additional observations from a re-analysis of the deposited data

How the results depend on the processing

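Counts of called histone cluster genes stayed within 1.5 times with relative log expression size factors and a filter at 1 CPM. Members called higher in ERb_KO against control, 0 in the reported fit, were 5 with the GC and length trend removed, 4 with only the groups compared and 1 with no filter. In ERb1 against ERb_KO 5 were higher, the uncorrected HIST1H2BG among them, and 2 lower with the GC and length trend removed. In ERb5 against ERb_KO 1 was lower with no filter and 1 with the GC and length trend removed. In ERb5 against ERb1 4 were higher and 1 lower with no filter. In ERb1 against control 1 was lower with upper quartile size factors, 1 with DESeq2, 1 with the GC and length trend removed, 2 with no filter and 2 with only the groups compared. The cause of these shifts was not tested, and the share of all genes called under these settings is not given. Leaving out 1 library gave 0 to 7 higher and 0 to 1 lower in ERb1 against ERb_KO, 3 to 22 higher and 0 to 1 lower in ERb5 against ERb_KO, 0 to 9 higher in ERb5 against ERb1, 0 to 5 higher in ERb1 against control and 6 to 24 higher in ERb5 against control. A lone library left in a group was taken to vary like the other groups.

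Some small, uncalled log2 changes of pathway genes turned sign. With the GC and length trend removed the log2 change of CASP8AP2, ERb5 against ERb1, was 6.3e-05 and that of H2AFZ 0.039 in ERb5 against control. Over the left-out libraries SLBP in ERb5 against ERb1 ran from -0.11 to 0.19, CASP8AP2 from -0.29 to 0.12 in ERb5 against ERb1, from -0.15 to 0.0072 in ERb1 against control and from -0.36 to 0.046 in ERb5 against control, H3F3B in ERb1 against control from -0.15 to 0.101 and H2AFX in ERb5 against control from -0.49 to 0.19.

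Replicate numbers are shared by the groups, but the pairing has 2 pairs a comparison and deviations of same-numbered libraries correlated between -0.12 and 0.14. Blocking on the replicate number, 1 member was higher in ERb_KO against control, 1 lower in ERb5 against ERb_KO and 1 lower in ERb1 against control. With the numbers crossed, an alternative chosen after seeing the data, 7 were higher in ERb_KO against control, and in ERb1 against control 14 were higher and 2 lower.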
